A study of Homo sapiens with 54 samples.

Results

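The aldehyde dehydrogenases described here are 10 genes taken by symbol from the 59368 genes of the deposited table: ALDH1A1, ALDH1A2, ALDH1A3, ALDH1B1, ALDH2, ALDH3A1, ALDH3A2, ALDH3B1, ALDH7A1 and ALDH9A1. The group was picked because ALDH1A1 was very high in sensitive HT-29 cells and absent from the libraries labelled resistant HT-29, so the members' levels in that pair of groups are given as a description, with no test. RNA sequencing covered HT-29, DLD-1 and HCT-116, 3 lines grown from human colorectal cancers, each as 5-fluorouracil (5-FU) sensitive cells and as cells grown for months in stepwise increasing 5-FU until resistant. The control cells were given 10 µM uracil, and treated cells 10 µM 5-FU, either alone or followed by a change of medium and X-ray irradiation at the median lethal dose of that line, with 24 h of uracil or 5-FU in every group. Each of the 18 conditions had 3 replicates, which the study describes as biological, giving 54 libraries with totals of 38957142 to 218518344 estimated counts. The sources describe 1 resistant population per line, maintained in 5-FU, and do not state how long resistant cells were off the drug before the uracil control. Levels are in TPM (the usual unit scaled to a fixed sum per library, which corrects for transcript length and depth), and changes are log2 changes of normalised counts from edgeR's quasi-likelihood test, with a call requiring an adjusted p of at most 0.01 and at least a 2-fold change. The p-values set a change against the spread between replicate cultures of a condition, estimated together over all 18 libraries of a line. In HT-29 these include the libraries labelled resistant, which therefore enter the errors of the comparisons in sensitive cells.

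Aldehyde dehydrogenases oxidise aldehydes to carboxylic acids with NAD or NADP as the acceptor of electrons. ALDH1A1, ALDH1A2 and ALDH1A3 oxidise retinaldehyde to retinoic acid, and high activity of the ALDH1A enzymes is widely used to mark stem-like cells in colon tissue and colorectal tumours. ALDH1B1 and ALDH2 are mitochondrial enzymes that act on acetaldehyde, the ALDH3 enzymes act on fatty and aromatic aldehydes, ALDH7A1 (antiquitin) acts in lysine breakdown, and ALDH9A1 oxidises aminobutyraldehyde and related amino-aldehydes.

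The promoters of ALDH1A1 and ALDH1A3 are shown because these members gave the highest levels of the group and changed in opposite directions with 5-FU in sensitive HT-29 cells. Each sequence holds the 250 bases before the RefSeq start site on GRCh38.p14, which is also where the most abundant transcript of the gene in these libraries started. Capitals mark matches, on either strand, to a CCAAT box (CCAAT), a GC box (GGGCGG) or the xenobiotic response element core (GCGTG), the letters bound by the aryl hydrocarbon receptor. A TATA box (TATAAA) and an AP-1 site (TGANTCA) were also searched and matched neither sequence.
ALDH1A1 (chr9:72953054-72953303, minus strand): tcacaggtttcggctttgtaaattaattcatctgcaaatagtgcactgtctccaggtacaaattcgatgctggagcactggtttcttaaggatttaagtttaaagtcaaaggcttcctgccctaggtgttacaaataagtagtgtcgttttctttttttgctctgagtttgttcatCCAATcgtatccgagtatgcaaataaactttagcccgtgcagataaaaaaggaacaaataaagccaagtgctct
ALDH1A3 (chr15:100879581-100879830, plus strand): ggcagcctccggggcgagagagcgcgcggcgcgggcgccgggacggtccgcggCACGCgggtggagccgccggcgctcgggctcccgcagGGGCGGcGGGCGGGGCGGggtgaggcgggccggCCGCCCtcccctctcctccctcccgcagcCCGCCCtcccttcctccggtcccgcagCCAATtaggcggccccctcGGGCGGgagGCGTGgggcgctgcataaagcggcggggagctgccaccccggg
The ALDH1A1 sequence held 38.4% G and C with 6 CG dinucleotides, at the 10.1 percentile of G and C content over 35116 RefSeq promoters, and its only match was a CCAAT box 74 bases before the start. The ALDH1A3 sequence held 82.4% G and C with 38 CG dinucleotides, at the 98.6 percentile, with a CCAAT box 71 bases before the start, 6 matches to the GC box and 2 to the GCGTG core. The medians over all promoters were 58.0% G and C and 11 CG dinucleotides. A CCAAT box occurred in 32.0% of all promoters, a TATA box in 10.7%, a GC box in 42.6%, the GCGTG core in 32.2% and an AP-1 site in 6.6%, so each match describes the letters and not a site in use. Of the 10 members, 8 had a RefSeq promoter entry. ALDH2 and ALDH3A1 had none.

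All libraries came from bulk cultures, in which fewer cells expressing a gene and less RNA per cell cannot be told apart. KRT8 had the highest level among 8 epithelial markers in every condition, CDX1 stayed below 1 TPM throughout, VIL1 was below 1 TPM in the libraries labelled resistant HT-29 and in HCT-116, and CDX2 was below 1 TPM in sensitive HT-29. The leukocyte marker PTPRC and the stromal markers COL3A1, DCN and PDGFRB were below 1 TPM in all 18 conditions, while the summed level of the 6 markers of other cells ranged from 0.74 to 32.7 TPM over all libraries, with COL1A1 the highest except in treated sensitive HT-29, where PECAM1 was. That sum moved with 5-FU in sensitive HT-29, from 0.74 to 1.78 TPM with uracil to 5.63 to 5.84 TPM with 5-FU. The summed level of the 8 epithelial markers moved as well, from between 7868 and 8632 TPM with uracil to between 13013 and 13185 TPM with 5-FU in sensitive HT-29, and from between 1962 and 2114 TPM to between 3303 and 3366 TPM in sensitive HCT-116. The part of either sum in the members' changes was not tested. The libraries labelled resistant HT-29 stood apart from their label: of 47 genes expressed in HCT-116 and in neither other sensitive line, 45 (95.7%) were at 1 TPM or more in them, while 0 of 7 such HT-29 genes were. For this reason they are named throughout by their label, and the difference between them and sensitive HT-29 cannot be told apart from a difference between cell lines.

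**Figure D1:**
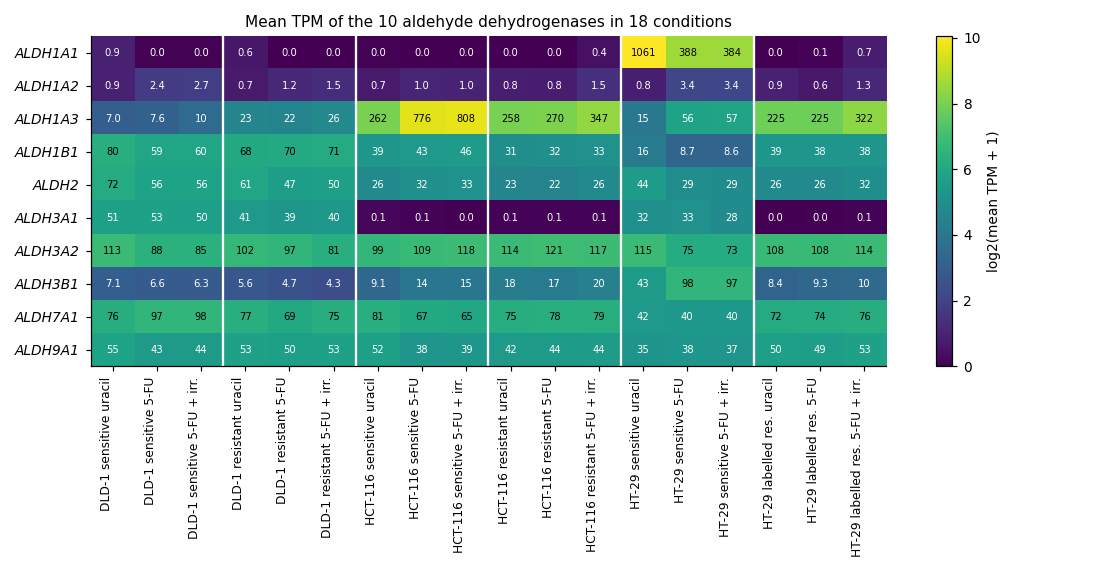
Mean TPM of the 10 aldehyde dehydrogenases (rows) in the 18 conditions (columns), n = 3 libraries each, with the colour scaled to log2(mean TPM + 1) and the mean TPM written in each cell. ALDH1A1 reached 1061 TPM in sensitive HT-29 with uracil and stayed below 1 TPM in all conditions outside sensitive HT-29, while ALDH3A2, ALDH7A1 and ALDH9A1 lay between 35.4 and 121 TPM in every condition.

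The leading aldehyde dehydrogenase differed between the sensitive lines. With uracil, ALDH1A1 made up 75.5% of the members' summed TPM in HT-29 (sum 1405 ± 67.8 TPM, SD, n = 3) and ALDH1A3 made up 46.1% in HCT-116 (sum 569 ± 2.12 TPM). In DLD-1 the sum was 462 ± 8.43 TPM and no member dominated, with ALDH3A2 at 24.5% and ALDH1B1 at 17.2%. ALDH3A2 was second in HT-29 (8.2%) and in HCT-116 (17.3%). The number of members with a mean of at least 1 TPM was 7 in HCT-116, 8 in DLD-1 and 9 in HT-29. In HCT-116 the members below 1 TPM were ALDH1A1, ALDH1A2 and ALDH3A1. As the heat map shows, the members differed from each other in how far they moved between conditions, and ALDH1A1, ALDH1A3 and ALDH3A1 covered the widest ranges.

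ALDH1A1, the cytosolic retinaldehyde dehydrogenase, was expressed at a high level in sensitive HT-29 alone. With uracil the 3 libraries gave 1090.4, 1096 and 997 TPM, with 5-FU 396, 391 and 379 TPM, and with 5-FU and irradiation 393, 382 and 377 TPM. Uracil libraries were therefore all above the treated ones, while the 5-FU and the irradiated libraries overlapped. Among all genes ranked by mean TPM, ALDH1A1 was number 137 with uracil, 353 with 5-FU and 362 with 5-FU and irradiation. In the libraries labelled resistant HT-29, ALDH1A1 was at 0 in all 3 uracil libraries, at 0.192, 0 and 0.057 TPM with 5-FU, and at 0, 0.0731 and 2.09 TPM with 5-FU and irradiation. Against a floor of 3 counts per library, the uracil level in sensitive HT-29 was at least 18017-fold higher than in the uracil libraries labelled resistant HT-29. This difference chose the group and carries no test.

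Outside sensitive HT-29, ALDH1A1 was at 0 in 24 of 45 libraries and at or under 3 counts in 39. The 6 libraries above 3 counts were not spread over a condition but were mostly single libraries. DLD-1 sensitive uracil replicate 1 had 173 counts (2.62 TPM), the library labelled resistant HT-29 with 5-FU and irradiation, replicate 3, had 121 counts (2.09 TPM), DLD-1 resistant uracil replicate 1 had 82 counts (1.60 TPM), and HCT-116 resistant 5-FU with irradiation replicate 2 had 74 counts (0.963 TPM). The remaining ones were DLD-1 sensitive uracil replicate 2 with 20 counts and the library labelled resistant HT-29 with 5-FU, replicate 1, with 11. The 4 larger levels were 0.247%, 0.197%, 0.151% and 0.0907% of the sensitive HT-29 uracil mean, in the same order. In DLD-1 sensitive uracil replicate 1, GPX2 and TM4SF4, which like ALDH1A1 were high in sensitive HT-29, were at 7.24 and 0.951 TPM, against 1.38 and 0.0482 TPM in replicate 2 and 1.59 and 0.0921 TPM in replicate 3. GPX2 and TM4SF4 were at 3.99 and 0.701 TPM in the irradiated replicate 3 labelled resistant HT-29, where GPX2 was at 0.207 and 0.648 TPM and TM4SF4 at 0.0242 and 0 TPM in replicates 1 and 2. They were at 1.77 and 0.419 TPM in DLD-1 resistant uracil replicate 1 and at 1.62 and 0.804 TPM in HCT-116 resistant 5-FU with irradiation replicate 2, in each case the highest of the 3 replicates. GPX2 and TM4SF4, picked from the genes named below as most like ALDH1A1, were thus at their highest of the 3 replicates in the same 4 libraries. From the same genes, UGT1A8 departed from this in DLD-1 resistant uracil, at 0.325 TPM in replicate 1 and 0.384 TPM in replicate 2. CCL15 was at 0 in all 3 irradiated libraries of resistant HCT-116. The source of the ALDH1A1 counts in these 4 libraries was not tested.

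**Figure D2:**
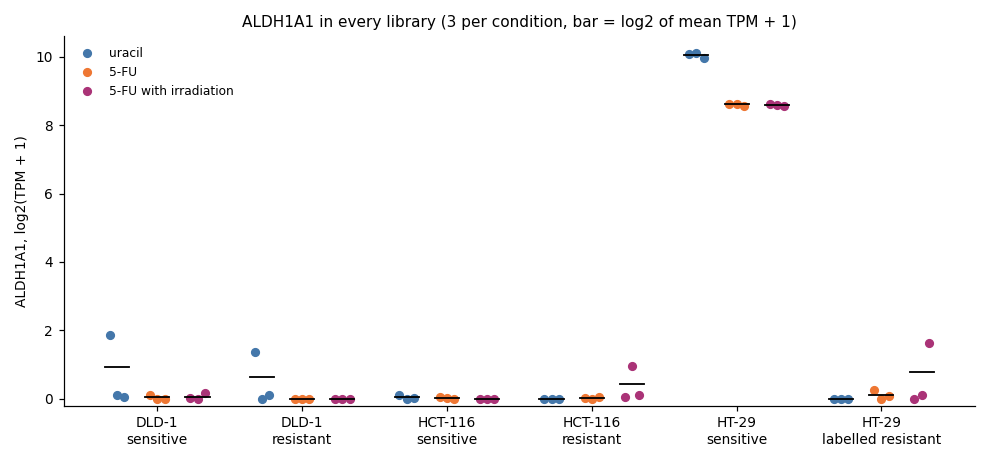
ALDH1A1 level in TPM (vertical axis) in each of the 54 libraries, grouped by condition. The 9 sensitive HT-29 libraries lie between 377 and 1096 TPM, with the uracil libraries highest, and no other library exceeds 2.62 TPM.

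The genes whose level was most like that of ALDH1A1 were TM4SF4, UGT1A8, IRX2, CCL15 and GPX2, with Pearson r of 0.998, 0.998, 0.997, 0.997 and 0.997 over the 18 condition means of log2(TPM + 1), among the 11808 genes whose mean reached 10 TPM in some condition. A total of 159 genes had r above 0.95, since all points but the sensitive HT-29 ones lie near 0, so r describes a gene restricted to those libraries. From uracil to 5-FU in sensitive HT-29, mean GPX2, a glutathione peroxidase of the gut epithelium, went from 1073 to 516 TPM and mean UGT1A8, a glucuronosyltransferase, from 83.2 to 59.8 TPM, and mean ALDH1A1 from 1061 to 388 TPM.

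The first set of comparisons asked how 24 h of 5-FU changed the members in sensitive cells. In HT-29, ALDH1B1 fell and ALDH1A2 and ALDH1A3 rose, and ALDH1A1, the gene that chose the group, was lower. In HCT-116, ALDH1A3 rose. In DLD-1, no member passed the call. The count was 4 of 10 members tested in HT-29, beside 12.2% of all genes tested, 1 of 8 in HCT-116, beside 8.14%, and 0 of 9 in DLD-1, beside 4.02%. The 4 in HT-29 include ALDH1A1, and without it the count was 3 of 9. DESeq2 gave no adjusted p for ALDH1A1 and called 3 members in HT-29 and 1 in HCT-116. In DLD-1, 6 members were at an unadjusted p under 0.05 in edgeR, beside 11060 of 21814 genes, and DESeq2 also called 0 members. The filter on low counts removed ALDH1A1 in DLD-1 and HCT-116 and ALDH3A1 in HCT-116. Members' median log2 changes were -0.31 in HT-29, 0.21 in HCT-116 and -0.15 in DLD-1, beside medians over all genes of 0.03, 0.03 and 0.01.

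ALDH1A1 went in sensitive HT-29 from 1090.4, 1096 and 997 TPM to 396, 391 and 379 TPM, a log2 change of -1.70 ± 0.17 (SE), or 3.24-fold lower on normalised counts. Leaving out any 1 library gave -1.71 to -1.59. These values are a description with no test, because the high ALDH1A1 level of these libraries chose the group. ALDH1A3, the retinaldehyde dehydrogenase that led in HCT-116, went the other way in the same libraries, from 14.8, 16.8 and 14.3 TPM with uracil to 54.9, 52.8 and 58.9 TPM with 5-FU, all above the uracil libraries, a log2 change of 1.68 ± 0.05 (adjusted p = 5.77e-19, edgeR). In sensitive HCT-116, ALDH1A3 was at 259.9, 266 and 261 TPM with uracil and 787, 778 and 765 TPM with 5-FU. That log2 change was 1.58 ± 0.04 (adjusted p = 1.29e-18, edgeR), 2.99-fold higher on normalised counts, and brought ALDH1A3 from rank 519 to rank 169 among all genes. In sensitive DLD-1, ALDH1A3 was low, at 6.44, 6.70 and 7.95 TPM with uracil and 7.38, 7.97 and 7.50 TPM with 5-FU, and these groups overlapped (log2 change 0.08 ± 0.07, adjusted p = 0.378, edgeR).

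With 5-FU, ALDH1A1 went from 75.5% to 50.5% of the members' summed TPM in sensitive HT-29, and the sum went from 1405 ± 67.8 to 769 ± 9.87 TPM (SD, n = 3). The second member with 5-FU was ALDH3B1, at 12.7%. In sensitive HCT-116 the sum went from 569 ± 2.12 to 1082 ± 8.25 TPM, with ALDH1A3 at 71.8% of it after 5-FU. In sensitive DLD-1 it went from 462 ± 8.43 to 412 ± 3.52 TPM, and ALDH7A1 became the leading member at 23.4%.

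ALDH1A2, the third retinaldehyde dehydrogenase, was low in every condition. In sensitive HT-29 it was at 0.59, 0.829 and 0.947 TPM (6, 8 and 7 counts) with uracil and at 3.27, 2.72 and 4.19 TPM (52, 47 and 41 counts) with 5-FU. These groups did not overlap, and the log2 change was 2.10 ± 0.40 (adjusted p = 7.16e-05, edgeR). In sensitive DLD-1 it was at 0.589, 1.70 and 0.425 TPM with uracil and 2.42, 1.99 and 2.79 TPM with 5-FU, a log2 change of 1.04 ± 0.34 that missed the call (adjusted p = 0.0171, edgeR). Without uracil replicate 2, the deepest library of the series and the highest of these 3 in ALDH1A2, the DLD-1 change was 1.52 and passed (adjusted p = 0.00684, edgeR). With that library thinned to 23.05% of its counts instead, ALDH1A2 was still not called.

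ALDH1B1, the mitochondrial member, was at 16.0, 17.2 and 15.5 TPM with uracil and 8.30, 9.13 and 8.76 TPM with 5-FU in sensitive HT-29. All 5-FU libraries were lower, with a log2 change of -1.14 ± 0.06 (adjusted p = 1.04e-14, edgeR). With library size alone as the normalisation, under which the median of all genes moved up by 0.16 in this contrast, ALDH1B1 was at -0.99 and missed the 2-fold limit, while ALDH3B1 was at 1.04 and passed it. In sensitive DLD-1, ALDH1B1 went from 80.8, 78.0 and 80.2 TPM to 58.4, 59.3 and 59.6 TPM, also without overlap but by less than 2-fold (log2 change -0.54 ± 0.04, adjusted p = 1.34e-09, edgeR). In sensitive HCT-116 its log2 change was 0.11 ± 0.05 (adjusted p = 0.0453, edgeR).

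Among the ALDH3 members, ALDH3B1, which oxidises aldehydes from lipid peroxidation, was at 43.1, 43.7 and 42.7 TPM with uracil and 98.7, 95.8 and 98.8 TPM with 5-FU in sensitive HT-29. The groups did not overlap, and the log2 change of 0.88 ± 0.04 (adjusted p = 2.38e-15, edgeR) lay below the 2-fold limit although the means of TPM differed by more. In sensitive HCT-116 it was at 10.2, 8.81 and 8.39 TPM and then 15.0, 14.6 and 13.9 TPM (0.77 ± 0.06, adjusted p = 9.16e-10, edgeR). ALDH3A2, the fatty aldehyde dehydrogenase whose loss causes Sjögren-Larsson syndrome, went from 111, 123 and 111 TPM to 75.6, 75.7 and 72.7 TPM in sensitive HT-29 (-0.87 ± 0.04, adjusted p = 2.25e-15, edgeR). In sensitive DLD-1 it went from 112, 113 and 115 TPM to 88.7, 89.5 and 86.0 TPM (-0.54 ± 0.06, adjusted p = 1.3e-07, edgeR). ALDH3A1, the cytosolic enzyme known from cornea and stomach, was at 31.5, 34.7 and 29.5 TPM in sensitive HT-29 with uracil and 32.6, 34.5 and 32.1 TPM with 5-FU, which overlapped, while its normalised counts gave a log2 change of -0.35 ± 0.07 (adjusted p = 0.0001, edgeR). Its direction thus differed between TPM and counts. The mean length of its transcripts, weighted by TPM, was 1623 bases with uracil and 1469 bases with 5-FU. ALDH9A1, whose mean TPM was also higher with 5-FU and its normalised counts lower, had 2433 and 2380 bases. The median of all genes in this contrast moved up by 0.16 with library size alone as the normalisation. The parts of transcript length and of normalisation in the difference were not tested.

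With no minimum fold, 10 of 10 members passed the adjusted p in sensitive HT-29, with ALDH1A2, ALDH1A3 and ALDH3B1 higher and the other 7 lower on normalised counts, beside 47.0% of all genes, a count that includes ALDH1A1. Of these 7, ALDH3A1 (31.9 to 33.1) and ALDH9A1 had a higher mean TPM with 5-FU, so their direction differed between TPM and normalised counts. The mean TPM of ALDH7A1 went from 42.1 to 40.4. In sensitive HCT-116, 5 of 8 passed, beside 42.0% of all genes: ALDH1A3, ALDH2 and ALDH3B1 were higher, and ALDH7A1 and ALDH9A1 lower. In sensitive DLD-1, 5 of 9 passed, beside 34.7%, with ALDH7A1 higher and ALDH1B1, ALDH2, ALDH3A2 and ALDH9A1 lower. ALDH2, the main acetaldehyde dehydrogenase, had a log2 change of -0.77 ± 0.05 in HT-29, -0.40 ± 0.10 in DLD-1 and 0.30 ± 0.04 in HCT-116. ALDH9A1 was lower in each line, by -0.20 ± 0.05 in HT-29, -0.48 ± 0.05 in DLD-1 and -0.53 ± 0.05 in HCT-116, but its mean TPM in HT-29 went from 35.4 to 37.5. The differences between lines were not tested, because each line had its own fit.

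**Figure D3:**
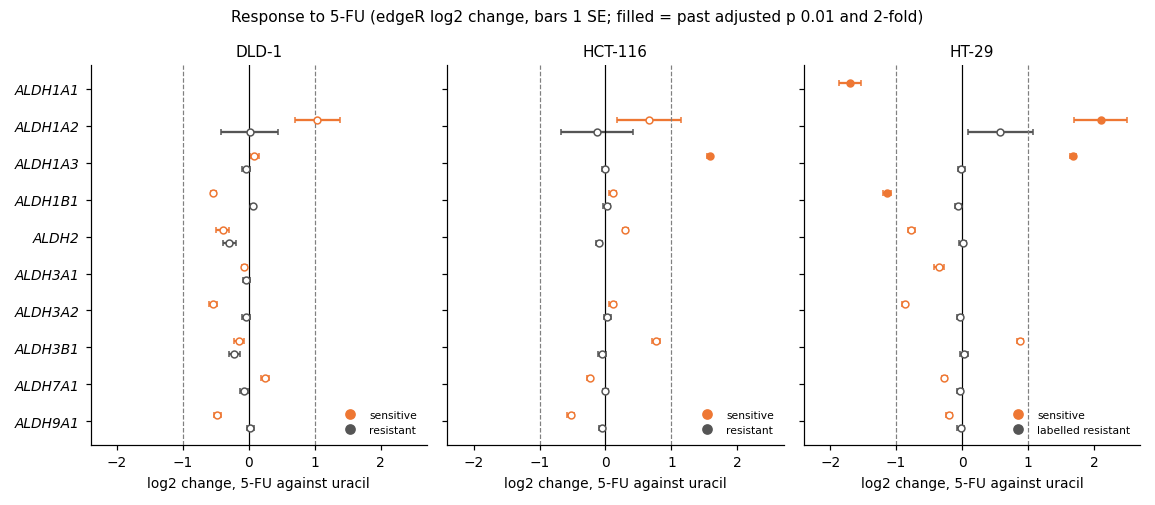
Log2 change with 5-FU against uracil from edgeR (horizontal axis) for each member, in sensitive and in resistant cells of each line, with bars of 1 SE and filled points where the change was called. Sensitive cells carry all 5 filled points: ALDH1A1, ALDH1A2, ALDH1A3 and ALDH1B1 in HT-29 and ALDH1A3 in HCT-116. The ALDH1A1 point is a description, since its level there chose the group, and ALDH1A1 and ALDH3A1 are not drawn where they were not tested or lay at the floor.

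The second set of comparisons asked how resistant cells differed from sensitive cells with uracil in both. In DLD-1, ALDH1A3 was the only member called, and it was higher in resistant cells (1 of 9 members, beside 5.7% of all genes tested). Sensitive libraries were at 6.44, 6.70 and 7.95 TPM and resistant libraries at 22.0, 23.3 and 23.7 TPM, without overlap, a log2 difference of 1.87 ± 0.06 (adjusted p = 4.03e-15, edgeR). In HCT-116, where ALDH1A3 was already high, it was at 259.9, 266 and 261 TPM in sensitive and 256, 263 and 253 TPM in resistant libraries, which overlapped (0.01 ± 0.04, adjusted p = 0.798, edgeR). No member was called in HCT-116 (0 of 8, beside 11.0% of all genes), while DESeq2 called 1, ALDH3B1. At an unadjusted p under 0.05 in edgeR there were 6 members, beside 12933 of 22975 genes.

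ALDH3B1 in HCT-116 was the member closest to the limit. It was at 10.2, 8.81 and 8.39 TPM in sensitive and 19.5, 19.0 and 15.8 TPM in resistant libraries, without overlap, and its log2 difference of 1.00 ± 0.06 (adjusted p = 1.53e-11, edgeR) fell just under 2-fold before rounding. On the other side of the limit, the smallest change called in any member was that of ALDH1B1 in sensitive HT-29. In DLD-1, ALDH3B1 went the other way, at a mean of 7.08 TPM in sensitive and 5.64 TPM in resistant cells (-0.34 ± 0.08, adjusted p = 0.0015, edgeR).

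With no minimum fold, 5 of 9 members passed in DLD-1, beside 24.6% of all genes, with ALDH1A3 higher and ALDH1B1, ALDH3A1, ALDH3B1 and ALDH9A1 lower in resistant cells. In HCT-116, 4 of 8 passed, beside 41.1%, with ALDH3B1 higher and ALDH1B1, ALDH2 and ALDH9A1 lower. ALDH1B1 was at -0.25 ± 0.04 in DLD-1 and -0.38 ± 0.05 in HCT-116. ALDH9A1 was at -0.18 ± 0.05 in DLD-1 and -0.29 ± 0.05 in HCT-116. ALDH1A1 could not be compared in either line, being at or near 0 in both states. The members' median log2 difference was -0.18 in DLD-1 and -0.14 in HCT-116, beside -0.01 and 0.00 over all genes.

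For HT-29 the same pair of groups is described without a test. Besides ALDH1A1, ALDH3A1 was at a mean of 31.9 TPM in sensitive HT-29 and at or under 1 count in each uracil library labelled resistant HT-29, at least 556-fold higher in the sensitive cells. ALDH3B1 was at 43.2 TPM in sensitive and 8.36 TPM in the labelled resistant libraries. ALDH1A3 was at 15.3 against 225 TPM, and ALDH1B1 at 16.2 against 38.6 TPM. In sensitive HCT-116 the same members had means of 0.0924 TPM for ALDH3A1, 9.15 TPM for ALDH3B1, 262 TPM for ALDH1A3 and 39.4 TPM for ALDH1B1. The uracil libraries labelled resistant HT-29 did not overlap those of sensitive HCT-116 in ALDH1A3, ALDH3A2 and ALDH7A1. They overlapped in the other members, of which ALDH1A1 and ALDH3A1 lay near 0 in both groups. With 5-FU, the 2 groups did not overlap in ALDH1A3 (225 against 776 TPM), ALDH1B1, ALDH2, ALDH3B1 and ALDH9A1. The 776 TPM follow the rise of ALDH1A3 with 5-FU in sensitive HCT-116, and resistant HCT-116 with 5-FU had a mean of 270.3 TPM. The share of all genes that overlapped was not counted.

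ALDH1A3 had fewer overlapping neighbouring conditions than any other member. Ordered by mean TPM over the 18 conditions, 11 of its 17 neighbouring pairs did not overlap and 6 did, whereas all 17 pairs of ALDH1A2 overlapped and 16 of 17 pairs of ALDH9A1 did. These pairs mix lines, states and treatments, and sensitive and resistant HCT-116 with uracil overlapped in ALDH1A3. The same count over all genes was not made. From the highest, the order ran from sensitive HCT-116 with 5-FU and irradiation (808 TPM) and with 5-FU (776 TPM) to the irradiated resistant HCT-116 cells (347 TPM) and the irradiated libraries labelled resistant HT-29 (322 TPM). All other HCT-116 and labelled resistant HT-29 conditions lay at 225 to 270.3 TPM. Sensitive HT-29 lay at 57.1 and 55.5 TPM after 5-FU with and without irradiation, overlapping each other, and at 15.3 TPM with uracil. Resistant DLD-1 lay at 22.0 to 25.5 TPM and sensitive DLD-1 at 7.03 to 10.4 TPM.

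**Figure D4:**
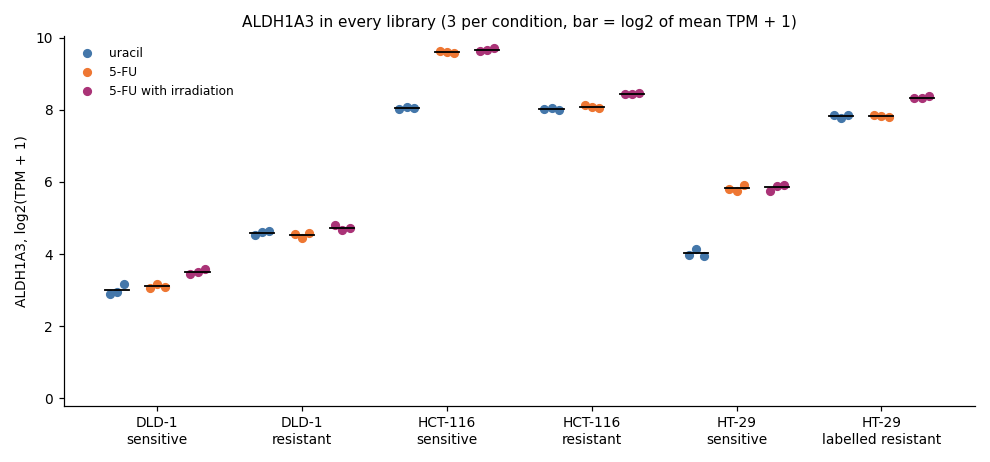
ALDH1A3 level in TPM (vertical log axis) in each of the 54 libraries, grouped by condition. With 5-FU it is higher in all sensitive HT-29 and HCT-116 libraries than with uracil, resistant DLD-1 lies above sensitive DLD-1, and irradiated libraries of resistant HCT-116 and of the label resistant HT-29 lie above those with 5-FU alone.

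The third question was whether the response to 5-FU differed between resistant and sensitive cells of one line, tested as the interaction of state and treatment at an adjusted p of at most 0.01. In HCT-116 it differed for 5 of 8 members, beside 29.7% of all genes tested. ALDH1A3, which rose in sensitive HCT-116, was at 280.4, 269 and 262 TPM in resistant cells with 5-FU against 256, 263 and 253 TPM with uracil, which overlapped, a log2 change of -0.01 ± 0.04. The difference in response was -1.59 ± 0.05 (adjusted p = 8.88e-16, edgeR). ALDH3B1 and ALDH2 also responded less in resistant cells, by -0.83 ± 0.09 (adjusted p = 1.2e-07) and -0.40 ± 0.06 (adjusted p = 2.8e-05), and the falls of ALDH9A1 and ALDH7A1 in sensitive cells were smaller in resistant cells, by 0.48 ± 0.07 (adjusted p = 1.42e-05) and 0.24 ± 0.06 (adjusted p = 0.00157, all edgeR). With no filter on low counts the ALDH7A1 difference was 0.23 and missed the call (adjusted p = 0.0132, edgeR).

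In DLD-1 the response differed for 4 of 9 members, beside 22.8% of all genes tested. ALDH1B1, ALDH3A2 and ALDH9A1, which were lower with 5-FU in sensitive DLD-1, had log2 changes of 0.06 ± 0.04, -0.05 ± 0.06 and 0.02 ± 0.05 in resistant DLD-1. Their differences in response were 0.60 ± 0.06 (adjusted p = 1.25e-07), 0.50 ± 0.08 (adjusted p = 7.05e-05) and 0.49 ± 0.07 (adjusted p = 9.66e-06, all edgeR). ALDH7A1, at 75.4, 71.0 and 80.2 TPM with uracil and 96.0, 95.6 and 98.4 TPM with 5-FU in sensitive DLD-1, was at 86.4, 73.2 and 72.3 TPM and then 67.0, 71.5 and 67.7 TPM in resistant DLD-1. Its difference in response was -0.34 ± 0.09 (adjusted p = 0.00422, edgeR), and it lost the call when any of 5 single libraries was left out. ALDH2 was not called (0.10 ± 0.14, adjusted p = 0.649, edgeR), its resistant uracil libraries being at 78.1, 51.7 and 52.5 TPM. Without replicate 1 of that group the ALDH2 difference was 0.29 and passed (adjusted p = 0.00476, edgeR). No such test was made for HT-29, whose contrast between states chose the group.

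Within resistant cells alone, no member was called for 5-FU against uracil in DLD-1 (0 of 9, beside 0.0138% of all genes), in HCT-116 (0 of 8, beside 0.0%) or in the libraries labelled resistant HT-29 (0 of 10, beside 0.00421%). At an unadjusted p under 0.05 in edgeR there were 2, 1 and 0 members, beside 4041 of 21814, 1878 of 22975 and 1280 of 23756 genes. DESeq2 called 0 members in each. ALDH1A3 changed by -0.04 ± 0.06, -0.01 ± 0.04 and -0.01 ± 0.05 on the log2 scale in these 3 comparisons. Among the 10 members labelled resistant HT-29, ALDH1A1 and ALDH3A1 passed the filter only through sensitive HT-29 and rested on at most 11 counts and 1 count per library, so the count says nothing about them. These shares of all genes leave little to read from the members' counts.

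Irradiation added to 5-FU called no member in any line or state. In sensitive cells the counts were 0 of 9 in DLD-1 (beside 0.0% of all genes), 0 of 8 in HCT-116 (beside 0.0%) and 0 of 10 in HT-29 (beside 0.00842%). At an unadjusted p under 0.05 in edgeR there were 2, 1 and 1 members, beside 2447 of 21814, 1943 of 22975 and 786 of 23756 genes. In resistant cells the counts of called members were 0 of 9 in DLD-1 (beside 0.142%), 0 of 8 in HCT-116 (beside 0.0261%) and 0 of 10 in the libraries labelled resistant HT-29 (beside 0.434%). At that unadjusted p there were 2, 3 and 3 members, beside 4714 of 21814, 4305 of 22975 and 7721 of 23756 genes. In the libraries labelled resistant HT-29, 1 of those 3 was ALDH1A1, which rested on 1 library with 121 counts, and ALDH3A1 had at most 4 counts in any library. DESeq2 called 0 members in all 6. With no minimum fold, the adjusted p was passed by 839 of 21814 genes in resistant DLD-1 and 593 of 22975 in resistant HCT-116. In the libraries labelled resistant HT-29 it was passed by 3425 of 23756 genes. Of the members, 1, 2 and 2 passed in these 3 comparisons. ALDH1A3 was higher in every irradiated library of resistant HCT-116, at 345.6, 346 and 349 TPM against 280.4, 269 and 262 TPM with 5-FU alone, by less than 2-fold (log2 change 0.40 ± 0.04, adjusted p = 1.64e-06, edgeR). In the libraries labelled resistant HT-29 it was at 317, 319 and 329 TPM against 231, 224 and 220.1 TPM (0.48 ± 0.05, adjusted p = 5.93e-08, edgeR). ALDH2 showed changes of 0.28 ± 0.05 (adjusted p = 0.000788) and 0.24 ± 0.05 (adjusted p = 0.000584, edgeR) in the same 2 comparisons. In resistant DLD-1, ALDH3A2 was at 84.0, 84.0 and 74.9 TPM with irradiation against 94.0, 99.7 and 95.9 TPM with 5-FU alone, a change of -0.28 ± 0.06 (adjusted p = 0.004, edgeR). In sensitive HT-29, ALDH1A1 was at 393, 382 and 377 TPM with irradiation and 396, 391 and 379 TPM without (-0.02 ± 0.16).

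Other genes of aldehyde and retinoid metabolism were read from 3 lists, of 9 other aldehyde dehydrogenases, 27 retinoid pathway genes, and 20 alcohol dehydrogenases and carbonyl reductases. In sensitive HT-29 with 5-FU, where 12.2% of all genes were called, 2 of 9 other aldehyde dehydrogenases were, 1 in each direction, with a median log2 change of -0.56 beside 0.03 over all genes. ALDH18A1, which makes proline and ornithine precursors, fell from 84.7 to 49.4 TPM (log2 change -1.10 ± 0.04, adjusted p = 9.28e-17, edgeR). Among 22 retinoid genes tested, 3 were higher and 1 lower, beside the same 12.2%, with a median of 0.12. DHRS9, which oxidises retinol to retinaldehyde, rose from 1.22 to 22.9 TPM (3.94 ± 0.11, adjusted p = 6.4e-20, edgeR), and DHRS4, a retinal reductase, fell from 12.8 to 8.02 TPM (-1.03 ± 0.08, adjusted p = 1.25e-11, edgeR).

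Among 17 alcohol dehydrogenases and carbonyl reductases tested in sensitive HT-29, 2 rose and 3 fell with 5-FU, again beside 12.2%, with a median log2 change of -0.43. AKR1B10, which reduces retinaldehyde to retinol, fell from 88.8 to 43.9 TPM (-1.28 ± 0.07, adjusted p = 1.27e-14, edgeR). AKR1C2, a steroid reductase, fell from 61.9 to 32.9 TPM (-1.12 ± 0.09, adjusted p = 9.61e-11, edgeR). In sensitive DLD-1 the 3 lists gave 0 of 9, 2 of 20 and 1 of 13 genes called, all higher, beside 4.02% of all genes. In sensitive HCT-116 they gave 0 of 8, 0 of 21 and 2 of 16, all higher, beside 8.14%. All of these were below 5 TPM and are named after their values were seen: DHRS9 (log2 change 2.04 ± 0.18), CYP26A1 (1.18 ± 0.28) and AOX1 (2.54 ± 0.27) in DLD-1, and AKR1B10 (1.31 ± 0.17) and AOX1 (1.86 ± 0.41) in HCT-116. The same holds for the other genes called in sensitive HT-29, where ALDH3B2, BCO1, CYP26B1, AKR1B1 and AOX1 rose and ADH1C fell. DHRS9 in DLD-1 was at 0.579 TPM with uracil and 2.60 TPM with 5-FU.

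Between resistant and sensitive DLD-1, 2 of 9 other aldehyde dehydrogenases, 1 of 20 retinoid genes and 1 of 13 alcohol dehydrogenases and carbonyl reductases were called, beside 5.7% of all genes. ALDH1L1, the folate enzyme 10-formyltetrahydrofolate dehydrogenase, was lower in resistant DLD-1, at 2.99 against 7.75 TPM (-1.24 ± 0.11, adjusted p = 1.37e-08, edgeR). In HCT-116 it was higher in resistant cells, at 9.82 against 0.472 TPM (4.35 ± 0.12, adjusted p = 1.95e-17, edgeR). In HCT-116, 1 of 8 other aldehyde dehydrogenases, 2 of 21 retinoid genes and 3 of 16 of the third list were called, beside 11.0% of all genes. CRABP2, which carries retinoic acid to its nuclear receptors, was lower in resistant HCT-116, at 197 against 409.9 TPM (-1.10 ± 0.08, adjusted p = 2.64e-10, edgeR). The others called were below 5 TPM: in resistant DLD-1, ALDH1L2 and the retinol receptor STRA6 were higher and AKR1C3 was lower, and in resistant HCT-116, ADHFE1, AKR1B10 and AOX1 were higher and STRA6 was lower.

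The transcripts behind these gene levels differed in kind, although the split within a gene is an estimate of the authors' quantification. ALDH1A1-201 (chr9:72900671-73080442 holds the gene, minus strand, GRCh38) made up 98.8% to 99.2% of ALDH1A1 in the 3 sensitive HT-29 conditions. ALDH1A3-201, of the gene at chr15:100877714-100916626 on the plus strand, was the most abundant ALDH1A3 transcript in all 18 conditions, at 62.4% to 87.1%. ALDH1A2, at chr15:57953424-58497866 on the minus strand, had 91.5% to 100% of its TPM on transcripts with no defined coding sequence in the 9 conditions where it reached 1 TPM, and 100% in sensitive HT-29 with 5-FU, so its rise there was carried by transcripts outside the annotated coding set.

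ALDH2, at chr12:111766887-111817532 on the plus strand, had 59.7% to 67.1% of its TPM on transcripts annotated to nonsense-mediated decay over the 18 conditions, and 32.9% to 40.3% on coding ones. Its leading transcript, ALDH2-203, was of the decay type and held 44.4% to 55.2%, while ALDH2-201, the reference coding transcript, held 6.57% to 8.21%. ALDH1B1, at chr9:38392702-38398661 on the plus strand, had all of its TPM on coding transcripts. ALDH3B1, at chr11:68008578-68029282 on the plus strand, had 2.74% to 31.8% on decay transcripts, and up to 10.8% on transcripts not matched to the annotation used, GENCODE 44. The remaining members, ALDH3A1, ALDH3A2, ALDH7A1 and ALDH9A1, had at least 55.0% of their TPM on coding transcripts wherever they reached 1 TPM.

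**Figure D5:**
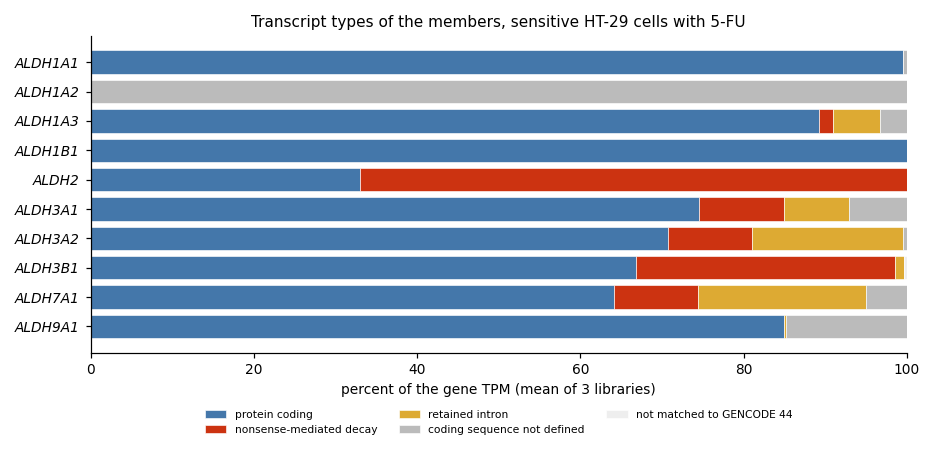
Percent of each member's TPM (horizontal axis) by GENCODE transcript type in sensitive HT-29 with 5-FU, mean of 3 libraries. Coding transcripts carry nearly all of ALDH1A1 and ALDH1B1, transcripts with no defined coding sequence carry all of ALDH1A2, and decay transcripts carry most of ALDH2.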

How the data were processed

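Gene expression in 54 RNA libraries was analysed from 2 gene-level tables and per-library transcript tables. The authors trimmed reads with Trimmomatic 0.36, checked them with FastQC 0.11.8 and quantified transcripts with kallisto 0.44.0 (names and versions from the submitters' processing notes, with the build GRCh38.p13), and deposited estimated counts and TPM. Each estimated count was rounded to a whole number before fitting. Library totals had a median of 51373543 and a second highest value of 86673615.

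Each line was fitted by edgeR 4.0.16 (limma 3.58.1, R 4.3.3) over 18 libraries in 6 groups, with filterByExpr and TMM normalisation, a quasi-likelihood test and Benjamini-Hochberg adjustment over all genes tested. A total of 16 comparisons were tested. Calls needed an adjusted p of at most 0.01 and a 2-fold change, and interactions the adjusted p alone. Tables and figures used Python 3.11.15, pandas 2.3.3 and matplotlib 3.10.9. The fit was tested on simulated counts. Alternatives were no minimum fold, library size alone, DESeq2 size factors, DESeq2 1.42.0, no filter, the replicate number as a block, only the compared groups, the deepest library thinned to 23.05% of its counts, other detection limits, and each library left out in turn.

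The members and gene lists were chosen with earlier results of these data known. All 10 members were named. Genes of the other lists were named where called with a mean of at least 5 TPM in 1 group, up to 4 per list and comparison, and the 5 genes with the highest r to ALDH1A1 were named as most like it. The 54 replicate pairs all differed by more than counting noise (lowest chi-square per degree of freedom 2.31).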

Additional observations from a re-analysis of the deposited data

Results flagged for a closer look

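For 9 results, the response to 5-FU differed between resistant and sensitive cells of the same line by the interaction test, and they are listed here for that reason alone. In HCT-116, the log2 responses differed, as resistant minus sensitive, by -1.59 for ALDH1A3, -0.83 for ALDH3B1, -0.40 for ALDH2, 0.48 for ALDH9A1 and 0.24 for ALDH7A1. In each of these 5 members the response in sensitive cells was the larger in size: 1.58 against -0.01 for ALDH1A3, 0.77 against -0.05 for ALDH3B1, 0.30 against -0.10 for ALDH2, and -0.53 against -0.05 for ALDH9A1, with -0.24 in sensitive cells for ALDH7A1. In DLD-1, they differed by 0.60 for ALDH1B1, 0.50 for ALDH3A2, 0.49 for ALDH9A1 and -0.34 for ALDH7A1. ALDH9A1 and ALDH7A1 were the members listed for both lines, ALDH7A1 with opposite signs. The ALDH7A1 difference in HCT-116 missed its call with no filter on low counts (0.23, adjusted p = 0.0132, edgeR), and that in DLD-1 missed it when any of 5 single libraries was left out.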

How the results depend on the processing

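Counts of members called or detected stayed within 1.5 times the reported count in 103 values with single libraries left out and in 171 under the other alternatives, and moved further in 5 and 19. With no minimum fold, the count was 5 for 5-FU in sensitive DLD-1, 5 in sensitive HCT-116 and 10 in sensitive HT-29, 5 for resistant against sensitive DLD-1 and 4 for HCT-116, and, for irradiation added to 5-FU in resistant cells, 1 in DLD-1 (beside 839 of 21814 genes), 2 in HCT-116 (beside 593 of 22975) and 2 among those labelled resistant HT-29 (beside 3425 of 23756). With no filter on low counts it was 1 for 5-FU in sensitive DLD-1, in resistant DLD-1 and among the libraries labelled resistant HT-29, and 1 for irradiation in those labelled resistant HT-29 and in resistant HCT-116, in each case ALDH1A1 at trace counts. Resistant against sensitive HCT-116 gave 1, ALDH3B1, with no filter, with library size alone, with DESeq2 size factors, with DESeq2 and with only the compared groups, and 0 to 1 with single libraries left out (ALDH3B1 log2 difference 0.95 to 1.10; it passed without sensitive uracil replicate 1, at 1.10, sensitive uracil replicate 2, at 1.02, or resistant uracil replicate 3, at 1.08). With only the compared groups, 5-FU in sensitive DLD-1 gave 1, ALDH1A2 (1.03). With single libraries left out it gave 0 to 2, the 2 being ALDH1A2 and trace ALDH1A1 without uracil replicate 2. Irradiation in the libraries labelled resistant HT-29 gave 0 to 1, the 1 being ALDH1A1 without irradiated replicate 2 (3.54), and without irradiated replicate 3, which held 121 counts, ALDH1A1 turned to -3.14 (range over single libraries -3.14 to 4.44).

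The ALDH2 difference in response in DLD-1, 0.10, turned to -0.01 with library size alone and without resistant uracil replicate 2, with a range of -0.01 to 0.29 over single libraries. That of ALDH7A1 in DLD-1 lost its call without sensitive uracil replicate 2 (-0.31), sensitive 5-FU replicate 2 (-0.33) or 3 (-0.32), or resistant 5-FU replicate 1 (-0.34) or 3 (-0.31), and in HCT-116 with no filter (0.23). The cause was not tested. DESeq2 gave no adjusted p for ALDH1A1 in sensitive HT-29 and called 3 members there. Library size alone moved the median log2 change of all genes with 5-FU by 0.16 in sensitive HT-29 and 0.11 in sensitive DLD-1, and the share of higher calls among all genes from 72.8% to 84.9% and from 66.1% to 78.1%. For the difference in response it moved that share to 51.5% from 61.6% (HCT-116) and to 39.2% from 60.0% (DLD-1).

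Same-numbered replicates did not deviate together (correlations of -0.087 to 0.103 over all same-numbered pairs of a line), so the replicate numbers pair no samples. With the replicate number as a block, the count of members called was the same in all 16 comparisons, for example 4 in sensitive HT-29. Depth limited the values of ALDH1A2, and those of ALDH1A1 and ALDH3A1 outside the groups expressing them, which rest on few counts.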
